A study of Homo sapiens with 2 samples.

Results

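The clotting and complement genes form the set described here: 47 genes, taken by their gene symbol from a list of coagulation factors, fibrinolysis proteins and complement components, of 61541 genes in the deposited table. All 47 had reads in both libraries. They were measured by RNA-seq in Huh7, a cell line derived from a human hepatocellular carcinoma, after transfection with a control siRNA (Huh7-NC) or with an siRNA against BRF2 (Huh7-si). BRF2 is a subunit of the factor that brings RNA polymerase III to promoters such as that of the U6 RNA gene. There was 1 library per group, both from 1 cell line, so no difference has a replicate check. Which siRNA against BRF2 was used, and the time between transfection and harvest, are not given in the sources used here.

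Hepatocytes make most of the clotting factors and complement proteins of blood plasma. In clotting, a chain of proteases that circulate as inactive precursors ends with thrombin, which cuts fibrinogen into fibrin, and plasmin later dissolves the clot. In complement, proteases started by antibodies, by sugars on microbes or by spontaneous turnover cut C3 and C5, and C5b then assembles with C6, C7, C8 and C9 into a pore in the target membrane. Inhibitors of both cascades, many of them serpins, are also liver products.

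The estimated reads summed to 22852648 in Huh7-NC against 22089016 in Huh7-si. CPM, a gene's reads scaled to that total, served for all changes, while TPM, which also divides by gene length, served for comparing levels between genes. BRF2 had 1281 reads in Huh7-NC against 364 in Huh7-si, for a log2 fold change of -1.77 (95% interval -1.94 to -1.60). All 10 hepatocyte markers had reads, led by ALB with 126940 and 113860 reads and AFP with 107941 and 123538 reads. Of 6 endothelial markers, 3 had reads, with a sum of 63 in Huh7-NC against 66 in Huh7-si, and KDR and TEK were at 0. The 6 blood and macrophage markers summed to 11028 and 9380 reads, nearly all of LYZ. CD68 had 235 and 244 reads, CD14 had 112 and 94, and PTPRC had 5 and 1. The 6 fibroblast or stellate cell markers summed to 1009 and 2191 reads, with DCN at 0 and with COL1A1 and COL1A2 higher in Huh7-si, and the part of these marker shifts in the results was not tested. A gene was called higher or lower when its CPM differed at least 2-fold and a two-sided exact binomial test on its reads gave an unadjusted p under 0.05. This test compares the 2 libraries and not the conditions, and its 95% Clopper-Pearson intervals cover counting error only.

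Of the 47 genes, 6 were higher in Huh7-si: F5 of the clotting cascade, and MBL2, MASP2, C4B, C6 and C8G of complement. This was 12.8% of the members, beside 10.4% of all 26379 genes with reads. None of the 47 was lower, beside 1.02% of all genes. Among the 42 members with at least 100 reads in one library, F5 and MBL2 were the 2 called, where 5.62% of the 11212 protein-coding genes with that depth were higher and 0.276% were lower. With a fold threshold of 1.5, 11 members were higher, beside 17.6% of all genes, and none was lower, beside 2.87%. With edgeR's TMM scaling, which lowered the log2 fold changes of all genes by 0.22, the 3 members C6, C8G and MASP2 kept the call, beside 6.91% of all genes, and none was lower, beside 2.17%. These shares lay near the background, so no excess of calls among the members is reported.

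The median log2 fold change of the members was 0.25 (quartiles -0.01 and 0.56), beside 0.21 for all genes with at least 10 reads over both libraries and 0.15 for protein-coding genes. Of the 47 members, 35 had a fold change above 0 by total reads, and 24 did so with TMM, 43 with the deposited TPM values and 30 after the median of genes of like length was subtracted. By total reads, the counting interval lay above 0 for 29 members, below 0 for 7 and across 0 for 11. The 47 genes held 193552 reads in Huh7-NC against 212291 in Huh7-si, or 0.847% and 0.961% of each library.

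**Figure D1:**
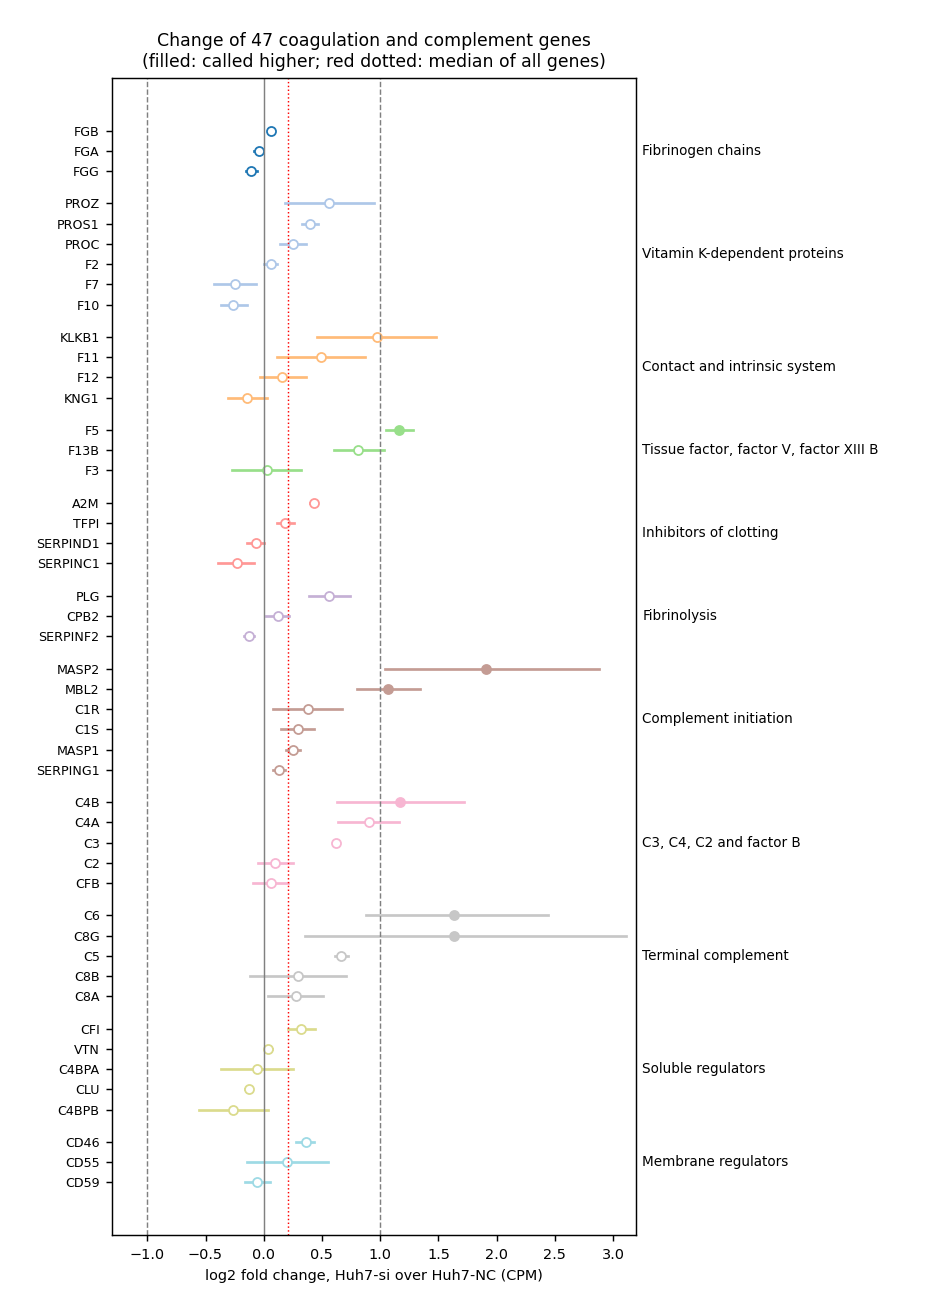
The log2 fold change of each of the 47 genes (x axis, Huh7-si over Huh7-NC, by CPM), grouped by role, with bars for 95% Clopper-Pearson intervals, filled points for genes called higher, dashed lines at a fold of 2 and a red dotted line at the median of all genes (0.21). The 6 filled points lie to the right of the dashed line at 1, no point lies to the left of the one at -1, and the 3 fibrinogen chains sit close to 0.

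In level, the members spanned more than 3 orders of magnitude. Clusterin (CLU, a chaperone of plasma that blocks the terminal complex) led in Huh7-NC with 1920 TPM, and the fibrinogen beta chain followed with 1793 TPM. At the other end stood MASP2 with 0.34 TPM and C6 with 0.49 TPM. The calls differed with level. Of the 29 members at 10 TPM or more in Huh7-NC, 0 were higher (median log2 fold change 0.06), beside 1.44% of the 7082 protein-coding genes of that level (median -0.04). Of the 18 members under 10 TPM, 6 were higher (33.3%, median 0.69), beside 12.6% of the 6136 protein-coding genes from 0.3 to 10 TPM (median 0.37). With TMM, 3 of the 18 were higher, beside 425 of the 6136. The level and the fold share the 1 Huh7-NC library, so a low count there lowers the level and raises the fold together. All 6 members called higher were under 10 TPM in Huh7-NC.

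**Figure D2:**
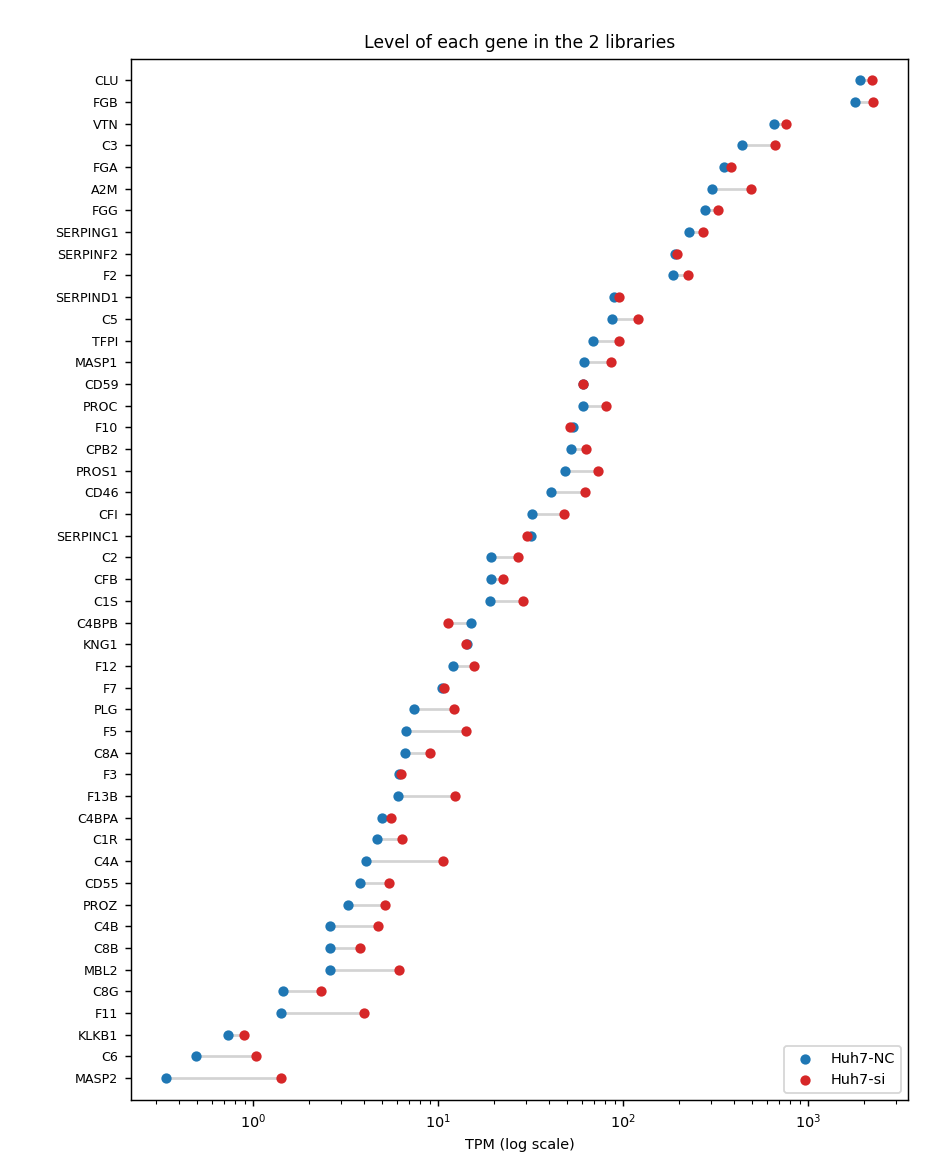
TPM of each of the 47 genes on a log scale, in Huh7-NC (blue) and Huh7-si (red), with genes ordered by their level in Huh7-NC. CLU and FGB stand at the top at 1793 to 2234 TPM, and the wide gaps between the colors lie in the lower part, as for MASP2 (0.34 and 1.41 TPM).

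The fibrinogen chains were among the most abundant clotting transcripts. FGB had 28267 reads in Huh7-NC against 28486 in Huh7-si, FGA had 14044 and 13158, and FGG had 8124 and 7298. The 3 genes encode the chains that assemble in equal numbers into the fibrinogen molecule. Their log2 fold changes were 0.06 for FGB (interval 0.04 to 0.08), -0.04 for FGA (-0.08 to -0.01) and -0.11 for FGG (-0.15 to -0.06), and their signs turned with the scaling: all 3 were below 0 with TMM (-0.16, -0.27 and -0.33) and above 0 by TPM (0.32, 0.13 and 0.23). The TPM of FGB was 6.49 times that of FGG in Huh7-NC and 6.88 times in Huh7-si, and that of FGA was 1.27 and 1.19 times that of FGG. These ratios depended on the length used, since the deposited TPM does not follow the deposited gene length: by reads per base of that length, FGB was at 1.56 and 1.75 times FGG, and FGA at 0.774 and 0.807 times. FGB had the highest level of the 3 chains on both scales in both libraries.

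The 3 genes lie side by side on chromosome 4 of GRCh38, from 154562956 to 154612967 (GENCODE release 29). Their promoters are shown because they sit in 1 cluster and changed little together, and that of MBL2 and of F13B because these genes had larger changes and hold the same motif as FGA and FGB. Since MBL2 and F13B were picked on both, the display does not relate the motif to the change. The sequences are RefSeq promoters of GRCh38.p14, 150 bases up to the base before the annotated start, printed on the gene's own strand. They cover chr4:154590743-154590892 (FGA, minus strand), chr4:154562830-154562979 (FGB, plus strand, 1 of 2 annotated starts), chr4:154612657-154612806 (FGG, minus strand), chr10:52771653-52771802 (MBL2, minus strand, 1 of 2 annotated starts) and chr1:197067261-197067410 (F13B, minus strand). Capitals mark GTTAAT or its reverse complement ATTAAC, 1 of 3 short motifs searched. The 150 bases of FGG held no match, and neither did those of the other annotated start of MBL2.
FGA: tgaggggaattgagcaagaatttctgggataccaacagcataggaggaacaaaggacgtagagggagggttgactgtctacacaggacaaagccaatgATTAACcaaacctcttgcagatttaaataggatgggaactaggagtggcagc
FGB: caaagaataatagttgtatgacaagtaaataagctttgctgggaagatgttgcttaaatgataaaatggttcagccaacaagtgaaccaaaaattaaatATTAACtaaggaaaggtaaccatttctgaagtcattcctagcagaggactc
FGG: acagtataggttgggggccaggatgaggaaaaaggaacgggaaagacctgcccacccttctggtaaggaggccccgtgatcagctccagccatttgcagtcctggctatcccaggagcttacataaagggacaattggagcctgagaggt
MBL2: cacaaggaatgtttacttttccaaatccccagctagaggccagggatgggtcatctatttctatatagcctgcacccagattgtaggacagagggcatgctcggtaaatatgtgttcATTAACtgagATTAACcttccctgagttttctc
F13B: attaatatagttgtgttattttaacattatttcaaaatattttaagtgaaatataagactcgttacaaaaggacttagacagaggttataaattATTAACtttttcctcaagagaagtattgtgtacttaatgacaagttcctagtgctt

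Promoter windows from 250 bases before to 50 bases after the start were found for 37 of the 47 members, and were searched on both strands for 3 motifs. GTTAAT was held by 12 of the 37 (32.4%), beside 8.27% of 27305 genes with a promoter in the table and 6.88% of 35116 promoters. The holders were F2, F13B, FGA, FGB, PLG, PROC, KLKB1, C1R, C5, CFI, MBL2 and C4BPA, 7 clotting and 5 complement genes. Their log2 fold changes ran from -0.06 to 1.07 with a median of 0.35, and those of the 25 members without it from -0.26 to 1.91 with a median of 0.16. Of the 12 holders 1 was called higher (MBL2), and of the 25 others 3, beside 10.4% of all genes. The range of the holders lay within that of the others, and holding these letters is a description and not a binding site. CAAAGTCC, part of the HNF4A motif, was held by F10, PROZ and C4BPB (8.11% of members, 1.47% of genes). TATAAA, the core of the TATA box, was held by F3, F13B and CFB (8.11% of members, 14% of genes). The message of HNF4A itself was not called, with 6766 reads in Huh7-NC against 6288 in Huh7-si.

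The 6 vitamin K-dependent proteins carry carboxylated glutamates that bind them to membranes. Prothrombin (F2), the precursor of thrombin, had 6364 and 6391 reads in Huh7-NC and Huh7-si, and a log2 fold change of 0.06 that became -0.17 with TMM. Factor VII (F7), the protease that starts clotting with tissue factor, had 563 and 459 reads, and factor X (F10), which makes thrombin, had 1369 and 1108. Their log2 fold changes were -0.25 (-0.43 to -0.07) and -0.26 (-0.37 to -0.14), and that of F7 was 0.04 by TPM. The remaining 3 members act against clotting. Protein C (PROC), the protease that inactivates factors V and VIII, had 1217 and 1396 reads (0.25, interval 0.14 to 0.36). Its cofactor protein S (PROS1) had 2998 and 3816 reads (0.40, 0.33 to 0.47). Protein Z (PROZ), cofactor of an inhibitor of factor X, had 96 and 137 reads (0.56, 0.18 to 0.95). None of the 6 passed the 2-fold threshold, and the group's median was 0.15. F7, F10 and PROZ are neighbors within 66.6 kb on chromosome 13, and their fold changes spanned 0.82 on the log2 scale.

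The contact and intrinsic system comprises factor XI (F11), factor XII (F12), prekallikrein (KLKB1) and kininogen (KNG1), which start clotting on negatively charged surfaces. F12 had 421 reads in Huh7-NC against 455 in Huh7-si, and KNG1 had 604 and 529. Their log2 fold changes, 0.16 and -0.14, had intervals across 0. F12 lies opposite GRK6, which had 2177 and 1735 reads. F11 had 102 and 138 reads, with a log2 fold change of 0.49 by reads (0.11 to 0.87) and of 1.49 by TPM. Of the 47 members, F11 was the one whose 2 deposited measures differed the most. KLKB1 had 52 and 98.4 estimated reads, with a log2 fold change of 0.97 by reads (0.46 to 1.48) and 0.29 by TPM, and it overlaps CYP4V2 on the same strand, which had 90 and 119 reads. F11 and KLKB1 are paralogs that lie within 79.8 kb on chromosome 4. For both genes the size of the change therefore depended on the deposited column used.

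Factor V (F5), the cofactor with which factor X makes thrombin, was the clotting member called higher. It had 862 reads in Huh7-NC against 1867 in Huh7-si, or 37.7 and 84.5 CPM, a log2 fold change of 1.16 (1.05 to 1.28). Its TPM was 6.68 and 14.1. Its change was 1.08 by TPM, 0.94 with TMM and 0.62 less the median at like length, so the last 2 were under 2-fold. At 7039 bases it was the longest member. The B subunit of factor XIII (F13B), which carries the enzyme that cross-links fibrin, had 287 and 487 reads (0.81, 0.60 to 1.03). Tissue factor (F3), the membrane receptor of factor VII, had 194 and 191 reads, and its log2 fold change of 0.03 (-0.27 to 0.32) was -0.20 with TMM.

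The inhibitors of clotting had a median of 0.06. Antithrombin (SERPINC1), which blocks thrombin and factor X, had 785 reads in Huh7-NC against 645 in Huh7-si (-0.23, -0.39 to -0.08). Heparin cofactor II (SERPIND1), a second serpin against thrombin, had 3615 and 3336 reads (-0.07, -0.14 to 0.00). Tissue factor pathway inhibitor (TFPI) had 2598 and 2851 reads (0.18, 0.11 to 0.26), and its change was -0.04 with TMM. Alpha-2-macroglobulin (A2M), a broad trap for proteases, had the largest difference in reads of the 4, 23459 and 30482 (0.43, 0.40 to 0.45). It was also the longest of the 4 at 4610 bases, and less genes of like length its change was 0.05. SERPIND1 lies opposite PI4KA (2776 and 3942 reads), and since the strandedness of the libraries is not given, reads of overlapping genes on opposite strands cannot be told apart.

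The fibrinolysis members were a protease precursor and a pair of proteins that act against it. Plasminogen (PLG), the precursor of plasmin, had 459 and 656 reads in Huh7-NC and Huh7-si (0.56, 0.39 to 0.74). Alpha-2-antiplasmin (SERPINF2) had 7681 and 6808 reads, and its log2 fold change of -0.13 (-0.17 to -0.08) was 0.04 by TPM. The carboxypeptidase CPB2, which protects fibrin from plasmin, had 1540 and 1616 reads, and its change of 0.12 (0.02 to 0.22) was -0.11 with TMM. None was called. Over all 23 clotting and fibrinolysis members, 1 was higher (4.35%, beside 10.4% of all genes), 0 were lower (beside 1.02%) and the median was 0.12.

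Of the 24 complement members, 5 were called higher (20.8%, beside 10.4% of all genes) and 0 lower (beside 1.02%), with a median of 0.29. With TMM, 3 of the 24 were higher, and 0 of the 23 clotting and fibrinolysis members, beside 6.91% of all genes. MASP2, C4B, C6 and C8G had under 100 reads in both libraries. The difference from the clotting members was not tested. Complement initiation held 2 of the 5, both of the lectin pathway, in which a sugar-binding lectin carries the protease MASP2 that cuts C4 and C2. Mannose-binding lectin (MBL2) had 170 reads in Huh7-NC against 344 in Huh7-si, or 7.44 and 15.6 CPM, a log2 fold change of 1.07 (0.80 to 1.34). It was 1.25 by TPM and 0.84 with TMM, the latter under 2-fold. MASP2 had 14 and 51 reads, or 0.613 and 2.31 CPM, the largest log2 fold change of the 47 at 1.91 (1.04 to 2.88), and stayed above 2-fold with TMM (1.69), by TPM (2.05) and less genes of like length (1.79). Its partner MASP1, a longer and far more abundant message, had 4079 and 4693 reads (0.25, 0.19 to 0.31). The lectin pathway thus held both a member at 61.2 TPM in Huh7-NC with a small difference and a member at 0.34 TPM with a large one.

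The classical pathway proteases C1R and C1S, which act inside the C1 complex, lie within 104 kb on chromosome 12. C1R had 177 and 222 reads in Huh7-NC and Huh7-si (0.38, 0.08 to 0.67), and C1S had 801 and 948 (0.29, 0.15 to 0.43). On the same strand, C1R overlaps C1RL (488 and 755 reads) and C1S overlaps EMG1 (2315 and 1783 reads). C1S also lies opposite LPCAT3 (1062 and 1129 reads). Reads of the shared stretches could have been given to either gene. C1 inhibitor (SERPING1), the serpin that stops C1R and C1S and also the contact proteases, had 6118 and 6463 reads. Its log2 fold change of 0.13 (0.08 to 0.18) was -0.10 with TMM. In TPM it was the most abundant of this group, with 227 in Huh7-NC beside 4.66 for C1R and 19.1 for C1S. The 6 initiation members had a median of 0.33.

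C3, the component on which all pathways meet, had 20929 reads in Huh7-NC against 31167 in Huh7-si, equal to 916 and 1411 CPM. The log2 fold change of C3 was 0.62 (0.60 to 0.65), with 0.40 by TMM, 0.59 by TPM and 0.21 less genes of like length. The interval is narrow because of the depth, and the value is under the 2-fold threshold on each of these scales. C2 and factor B (CFB), the proteases that cut C3 once bound to C4 or to C3 itself, had 686 and 710 reads and 702 and 707 reads. Their changes of 0.10 and 0.06 had intervals across 0 and were -0.13 and -0.17 with TMM. C2 and CFB overlap on the same strand, and reads of the shared stretch could have been given to either gene.

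C4 is encoded by 2 near-identical genes. C4A had 188 reads in Huh7-NC against 339 in Huh7-si (0.90, 0.64 to 1.16), and C4B had an estimated 42.6 and 93 reads (1.17, 0.63 to 1.72) and was the gene called. The coding sequences of 1 GENCODE 29 transcript of each were 5232 bases long with no gap between them, and differed at 13 bases (99.75% identity). Of these, 5 lie in 30 bases of exon 26 of 41, the stretch that sets the isotypes apart, at chr6:31996074-31996103 for C4A and chr6:32028812-32028841 for C4B (GRCh38, plus strand). It is shown, with differing bases in capitals, because these 5 of the 13 differing coding bases lie close together, and reads over other stretches of identical sequence match both genes.
C4A: tccaggaccCctGtccagtgTtaGaCagga
C4B: tccaggaccTctCtccagtgAtaCaTagga

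The split of reads between C4A and C4B is therefore uncertain. By TPM the order of the changes was the opposite, 1.37 for C4A and 0.85 for C4B, with C4A past 2-fold and C4B not. C4A held 81.5% of the reads of both genes in Huh7-NC and 78.5% in Huh7-si. Added together, a sum chosen after seeing the data, the pair had 231 and 432 reads, a log2 fold change of 0.95 (0.72 to 1.19), just under 2-fold. C2, CFB, C4A and C4B lie within 138 kb of chromosome 6, and within that stretch the log2 fold changes ran from 0.06 and 0.10 for CFB and C2 to 0.90 and 1.17 for C4A and C4B. C4A also overlaps STK19 on the same strand, which had 196 and 285 reads.

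Among the terminal components, C5 was the most abundant with 4825 reads in Huh7-NC against 7394 in Huh7-si (0.66, 0.61 to 0.72). It is, with C3 and C4, one of 3 related complement proteins of the alpha-2-macroglobulin family, and A2M itself was at 0.43. C6, the first to bind C5b, had 20 and 60 reads, or 0.875 and 2.72 CPM, and was called higher (1.63, 0.88 to 2.44). C6 stayed above 2-fold with TMM (1.41), by TPM (1.09) and less genes of like length (1.36). With a pseudocount of 1 CPM it was at 0.99 and was not called. C8G, the lipocalin chain of C8, was called on 7 and 21 reads, with a log2 fold change of 1.63 whose interval ran from 0.35 to 3.11, and had 0.69 by TPM. The other chains of C8, encoded side by side on chromosome 1, had 276 and 323 reads for C8A (0.28, 0.04 to 0.51) and 93 and 110 reads for C8B (0.29, -0.12 to 0.71). Both values lay below the lower end of the interval of C8G, but the intervals of C8A and C8B both overlapped it. By TPM, C8A was at 0.46 and C8B at 0.53, beside 0.69 for C8G. The difference between the chains was not tested. Reads of C6, C8A, C8B and C8G added together, an unplanned sum without C5, were 396 and 514 (0.43, 0.23 to 0.62). Most of these reads were of C8A.

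The soluble regulators held none of the calls and had a median of -0.06. Factor I (CFI), which cuts C3b and C4b, had 1097 reads in Huh7-NC against 1327 in Huh7-si (0.32, 0.21 to 0.44). The chains of C4b-binding protein, its cofactor, had 181 and 168 reads for C4BPA (-0.06, -0.37 to 0.25) and 208 and 168 for C4BPB (-0.26, -0.56 to 0.04). Vitronectin (VTN), which blocks the insertion of the terminal complex, had 17488 and 17378 reads (0.04, 0.01 to 0.07, and -0.18 with TMM). CLU had 25689 and 22655 reads (-0.13, -0.16 to -0.11, and 0.21 by TPM). These abundant regulators thus lay on either side of 0 depending on the scale.

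The membrane regulators protect the cell's own surface. CD46, a cofactor of factor I, had 2407 and 2979 reads in Huh7-NC and Huh7-si (0.36, 0.28 to 0.43). CD55, which dissociates the C3-cutting enzymes, had 134 and 149 reads (0.20, -0.14 to 0.55), and CD59, which blocks the terminal pore, had 1519 and 1413 (-0.06, -0.16 to 0.05). None of these passed the threshold. C4BPB, C4BPA, CD55 and CD46 lie within 707 kb of chromosome 1, the regulators' cluster, and their fold changes ran from -0.26 to 0.36.

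Gene length moved with the change among the members as among all genes. Over the 47 members, the Spearman correlation of length with log2 fold change was 0.45, a description over genes of the same 2 libraries. The 12 members under 2000 bases had a median of 0.05, the 21 members from 2000 bases up to 3500 bases 0.28, and the 14 members of at least 3500 bases 0.59. The protein-coding genes of the same length classes had medians of -0.19, 0.08 and 0.39. The medians climbed with length in both, and those of the members were the higher in each class. After the median of genes of like length was subtracted, the members' median was 0.08, and C6, C8G and MASP2 were the 3 still past 2-fold. Of the 4 longest members, F5 (7039 bases) went from 1.16 to 0.62, C5 (5464 bases) from 0.66 to 0.25, C4A (5427 bases) from 0.90 to 0.48 and C4B (5427 bases) from 1.17 to 0.75.

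**Figure D3:**
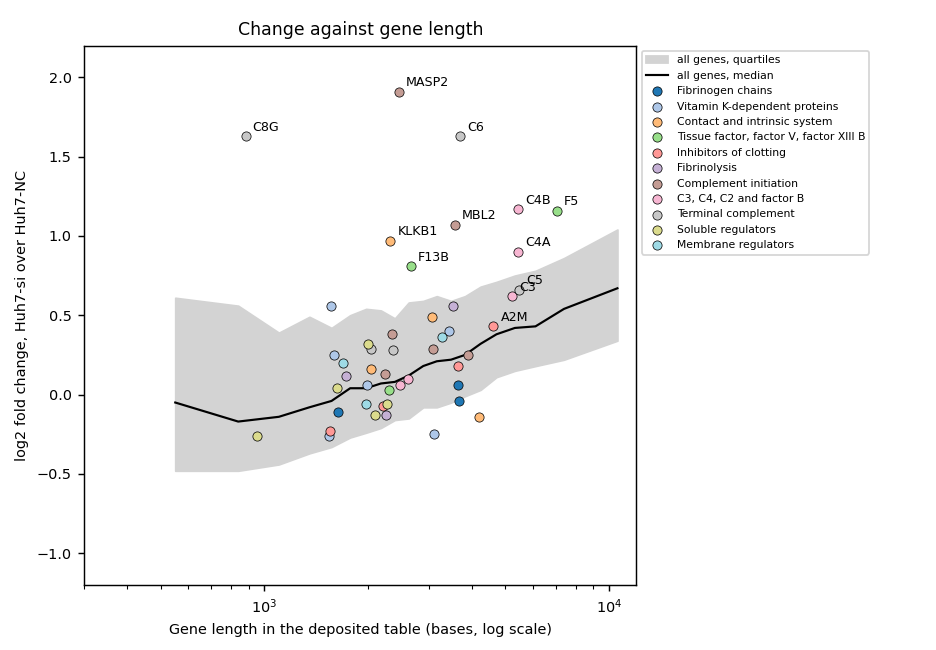
The log2 fold change of the 47 genes (y axis, by CPM) against gene length in bases (log scale), colored by role, over the median (black line) and quartiles (grey band) of all genes in 20 length bins. The black line runs from -0.05 at a median length of 551 bases through -0.17 at 839 bases to 0.67 at 10565 bases, A2M, C3 and C5 lie within the band, F5, C4A and C4B above it, and MASP2, C6 and C8G farthest above it.

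The choice of scale decided the sign of many small changes. Relative to total reads, TMM lowered each gene by 0.22, so that members between 0 and that value crossed to below 0, and the deposited TPM values lay higher by a median of 0.18 in the members and in all genes alike. MASP2 and C6 were the 2 members past 2-fold by total reads, with TMM, by TPM and less genes of like length. These scales rest on the same reads, 14 and 51 for MASP2 and 20 and 60 for C6. With a pseudocount of 1 CPM, MASP2 was at 1.04 and C6 at 0.99, so C6 lost the call. With an assumed coefficient of variation of 0.4, no member was called.

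**Figure D4:**
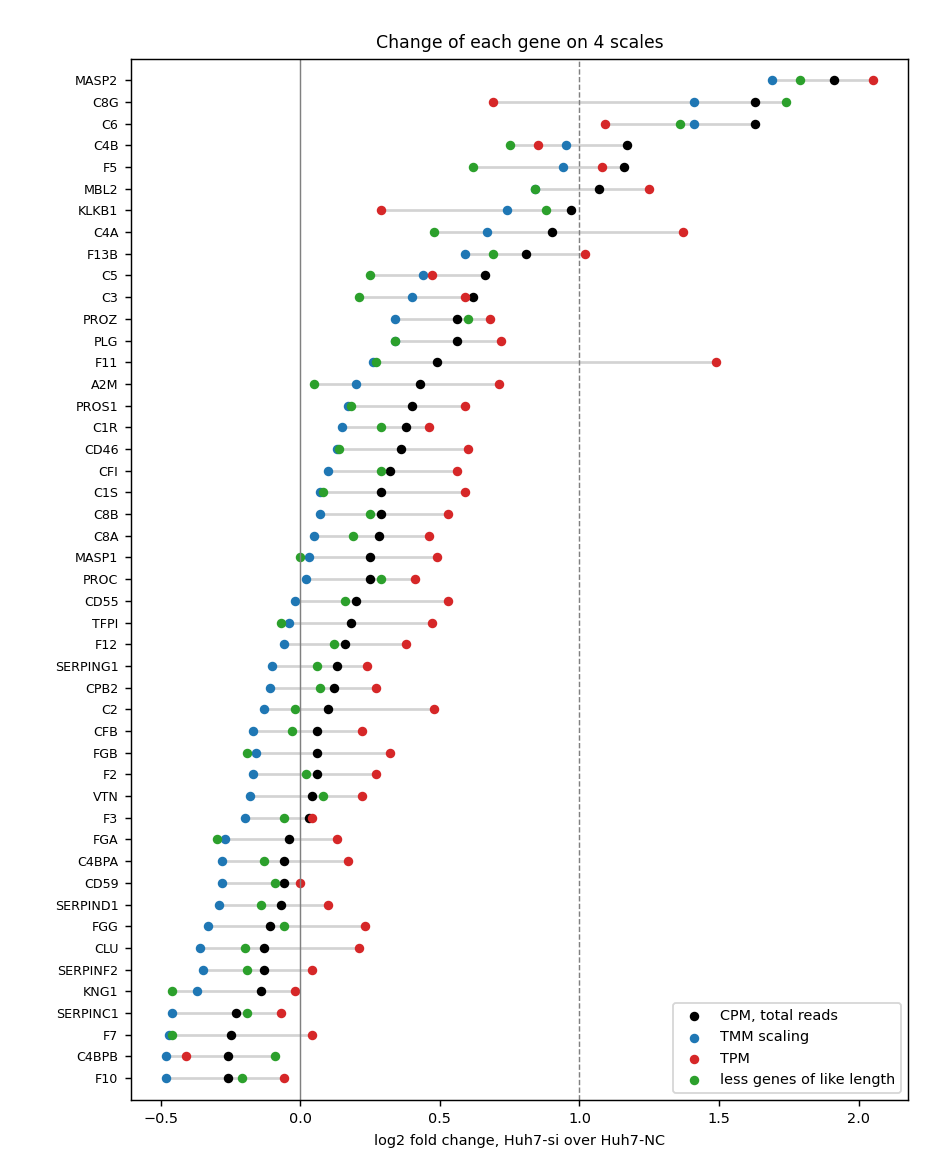
The log2 fold change of each of the 47 genes by CPM of total reads (black), with TMM scaling (blue), by TPM (red) and less the median at like length (green), ordered by the black points, with a dashed line at a fold of 2. The red points are mostly to the right of the black and the blue to the left, F11 has the widest spread (0.26 to 1.49), and MASP2 and C6 have all 4 points beyond the dashed line.

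Other genes of both systems were counted in the same way, beside 10.4% higher and 1.02% lower among all genes. Of 24 further coagulation genes, 20 had reads, 2 of these were higher (10%) and 0 were lower, with a median of 0.25. The 2 were the protease-activated receptor F2RL1, with 100 and 231 reads in Huh7-NC and Huh7-si (1.26, 0.91 to 1.61), and LRP1, a receptor that clears proteases bound to inhibitors, with 7377 and 15607 reads (1.13, 1.09 to 1.17, and 0.91 with TMM). Less genes of like length, F2RL1 was at 1.07 and LRP1, of 14923 bases, at 0.46. Factor IX (F9) and the A subunit of factor XIII (F13A1) had 0 reads, which allows up to 0.131 CPM in the Huh7-NC library and 0.136 CPM in that of Huh7-si. Of 31 further complement genes, 20 had reads, 3 of these were higher (15%) and 0 were lower, with a median of 0.44. C7, the component between C6 and C8, was one of them, with 61 and 136 reads (1.21, 0.76 to 1.67) but only 0.20 by TPM. The other two, CFHR5 and CFP, had under 100 reads, and the C1q chains C1QA, C1QB and C1QC had 0. C9 had 1 and 2 reads, so the last component of the pore was at or under the limit that a count of 0 allows, which is 3 reads.

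The machinery that modifies and carries clotting factors had none called among 7 genes and a median of -0.18. It included GGCX, the carboxylase that makes the vitamin K-dependent glutamates, with 4795 and 5088 reads (0.13, and -0.09 with TMM), and LMAN1 and MCFD2, the cargo receptor of factors V and VIII, with 3068 and 2613 reads and 3020 and 2640 reads. Of 14 acute phase genes, which the liver makes in inflammation, 1 was higher (7.14%, beside 10.4% of all genes), ITIH4 on 15.5 and 41 reads. None was lower (beside 1.02%), and the median was 0.01. With a fold of 1.5, 2 were higher and 3 lower, beside 17.6% and 2.87% of all genes. The 3 were ORM1 (7152 and 4215 reads, -0.71), ORM2 (2010 and 1127, -0.79) and HAMP (1219 and 676, -0.80). Of 13 liver transcription and cytokine signaling genes none was called, with a median of 0.08. With a fold of 1.5, IL6ST was higher (1539 and 2641 reads, 0.83) and CEBPA lower (11601 and 7249, -0.63). Of 29 other secreted liver proteins, 1 was higher, and their median was -0.24 beside 0.25 for the members, or -0.18 beside 0.08 less genes of like length. That 1 was APOB, the protein of very low density lipoproteins, with 20889 and 41399 reads (1.04, 1.01 to 1.06, and 0.81 with TMM). Less genes of like length, APOB, of 14121 bases, was at 0.36. The secreted liver proteins and the members were not matched for level. Protein-coding genes had a median of -0.34 at 100 TPM or more in Huh7-NC and of 0.42 under 10 TPM. The members had medians of 0.05 and 0.69 at these levels.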

How the data were processed

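Total RNA of Huh7-NC and Huh7-si, 1 library each, was sequenced by the authors, and groups were taken from the labels. The submitters' processing notes name Bowtie2 2.0.6, TopHat2 2.0.12 and GRCh37, while the counting tool, annotation and strandedness are not given in the sources used here. The authors deposited estimated counts of reads per gene, partly fractional and not scaled, TPM values and gene lengths. Columns of their own comparison (fold change, p-value, call) were not used.

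Estimated counts were scaled to total reads (CPM) without rounding, and were rounded for the exact binomial test (two-sided) and its intervals. A pseudocount of 0.5 reads served for medians. Positions come from GENCODE release 29 (GRCh38), which holds 94.8% of the identifiers. Promoters were not found for SERPINC1, SERPINF2, SERPING1, A2M, C1S, C3, C4A, C4B, C8G and CLU. C4 coding sequences were compared in place of proteins, which were not analysed here.

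Values were planned for members with 100 reads in one library and called members. KLKB1 and further genes of the lists below that depth or not called were named after their values were seen. Values of 2 further genes of the lists are not reported here. The members and lists were chosen with earlier results of these data known. Alternatives were TMM (edgeR 4.0.16), median of ratios (DESeq2 1.42.0), totals without the 100 top genes, 10 reads in each library, a pseudocount of 1 CPM, TPM, gene length in 20 bins, a fold of 1.5, Benjamini-Hochberg adjustment and an assumed coefficient of variation of 0.4. Python 3.11.15, NumPy 2.4.6, pandas 2.3.3, SciPy 1.17.1, matplotlib 3.10.9 and R 4.3.3 were used.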

Additional observations from a re-analysis of the deposited data

How the results depend on the processing

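The number of members higher in Huh7-si, 6 by total reads, was 3 with TMM and with median-of-ratios scaling, 2 with a pseudocount of 1 CPM, 3 less genes of like length, 11 with a fold threshold of 1.5 and 0 by edgeR's exact test with an assumed coefficient of variation of 0.4. It was 5 to 7 under the other 4 alternatives, and 0 members were lower under each alternative run. Over all genes, 2742 higher by total reads became 1822 with TMM, 1424 with at least 10 reads in each library, 911 with the pseudocount, 1701 less genes of like length, 4634 with a fold of 1.5 and 687 with the assumed variation. The 270 lower became 572 with TMM, 542 with median of ratios, 107 with 10 reads in each library, 43 with the pseudocount, 756 with a fold of 1.5 and 76 with the assumed variation. The members' median of 0.25 was 0.02 with TMM, 0.04 with median of ratios, 0.46 by TPM and 0.08 less genes of like length. Among members whose counting interval excluded 0, signs turned by TPM for F7 (0.04), FGA (0.13), FGG (0.23), SERPINF2 (0.04) and CLU (0.21). They turned with TMM and with median of ratios for F2 (-0.17 and -0.15), FGB (-0.16 and -0.15), SERPING1 (-0.10 and -0.08), TFPI (-0.04 and -0.02), CPB2 (-0.11 and -0.09) and VTN (-0.18 and -0.17), and less genes of like length for FGB (-0.19) and TFPI (-0.07). Of the members whose interval lay across 0, signs turned for 5 with TMM, 4 with median of ratios, 2 by TPM and 3 less genes of like length. TMM lowered each gene by 0.22, and the length step subtracted 0.25 for FGB and for TFPI. Why the scales differ was not tested.

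With 1 library per group, the spread between cultures cannot be estimated, and the intervals (median width to either side 0.15 on the log2 scale for the members) cover counting error only. No paired analysis was possible because the groups hold 1 library each. C8G, MASP2 and C6 rest on 7 to 60 reads per library, and C4A and C4B on reads that both genes may share.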
